A study of Mus musculus with 6 samples.

Results

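The genes described here encode the machinery that moves newly made proteins into the endoplasmic reticulum (ER) and carries them by coated vesicles between the ER and the Golgi. They were listed by name: the Sec genes, the signal sequence receptor (Ssr) and Tram genes, signal peptidase, the coats COPII and COPI, and the receptors that load or retrieve vesicle cargo. Of 56 listed genes, 54 were measured among the 19935 genes of the array. Sec61g was found only on probe sets shared with other genes, Kdelr2 had no probe set of its own, and neither is analysed here.

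RNA was measured on 2 arrays of osteoblastic cells from Y1KO mice, which lack the Y1 receptor of neuropeptide Y, and on 4 arrays from WT mice. Both genotypes were male and carried the same GFP reporter under 3.6 kb of the rat alpha1(I)-collagen promoter. Marrow stromal cells from femora and tibias were cultured for 7 days in control medium, and the fluorescent cells were sorted. The labels give neither the age of the mice nor how the Y1 gene was removed, and the reporter selects cells by activity of a collagen promoter rather than by osteoblast identity. The comparison asks what loss of the receptor changes in these cells. Whether the arrays come from separate mice or cultures is not stated in the labels. The p-values therefore reflect only array-to-array spread, part of which may be technical.

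Secreted proteins and most membrane proteins enter the ER through the Sec61 channel while they are being made, and signal peptidase cuts off the leader that brought them there. COPII forms the vesicles that leave the ER, with Sar1, Sec23 and Sec24 as the inner layer and Sec13 and Sec31 as the outer cage. COPI forms vesicles that return receptors and escaped ER proteins. Osteoblasts depend on this route because they secrete large amounts of type I collagen, and inherited defects of SEC23A and SEC24D in humans affect the skeleton.

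All values are log2 expression, differences are Y1KO minus WT on that scale, and a gene is said to have risen or fallen only where the limma adjusted p, corrected over all 19935 genes, was under 0.05. Array medians over all probe sets lay between 5.3 and 5.37. The probe set of Npy1r, the gene of the Y1 receptor, read 2.89 and 2.83 in Y1KO and 3.11, 2.84, 2.78 and 3.00 in WT, among the dimmest signals. The groups overlapped for Npy1r, so the targeted gene checks the labels neither way. Osteoblast markers were high on all arrays: the mean of the 6 that were measured, among them Col1a1, Sp7 and Ibsp, was 12.65 and 12.62 in Y1KO and 12.13 to 12.43 in WT. All 6 osteoblast markers lay above every WT array in Y1KO, as did 17.5% of all genes. Their median difference was 0.23, and 0 of the 6 passed the limma test (3 at an unadjusted p under 0.05).

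Most genes of the translocon and vesicle coats were more highly expressed in Y1KO cells, by modest amounts. By limma, 37 of the 54 rose, a share of 68.5%, while 6.1% of all genes tested rose. Of all genes tested 6.64% fell, and of the 54 members 0 fell. At an unadjusted p under 0.05, 46 members were higher and 1 was lower. Of the calls over all genes 47.9% were higher in Y1KO, and 60.5% when each array was centred on the median of its genes, which shifted the median difference of all genes to 0.07. The median difference of the 54 was 0.42, and that of all genes was 0.01. The 37 that rose did so by 0.31 to 0.83, or 1.24- to 1.77-fold. Both Y1KO arrays lay above all 4 WT arrays for 47 members and below them for 2, Sec24b and Tmed5. Over all genes those shares were 17.5% and 17.3%. In the remaining 5 members the genotypes overlapped. The estimate was above 0 for 48 members, and for 51.6% of all genes.

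**Figure D1:**
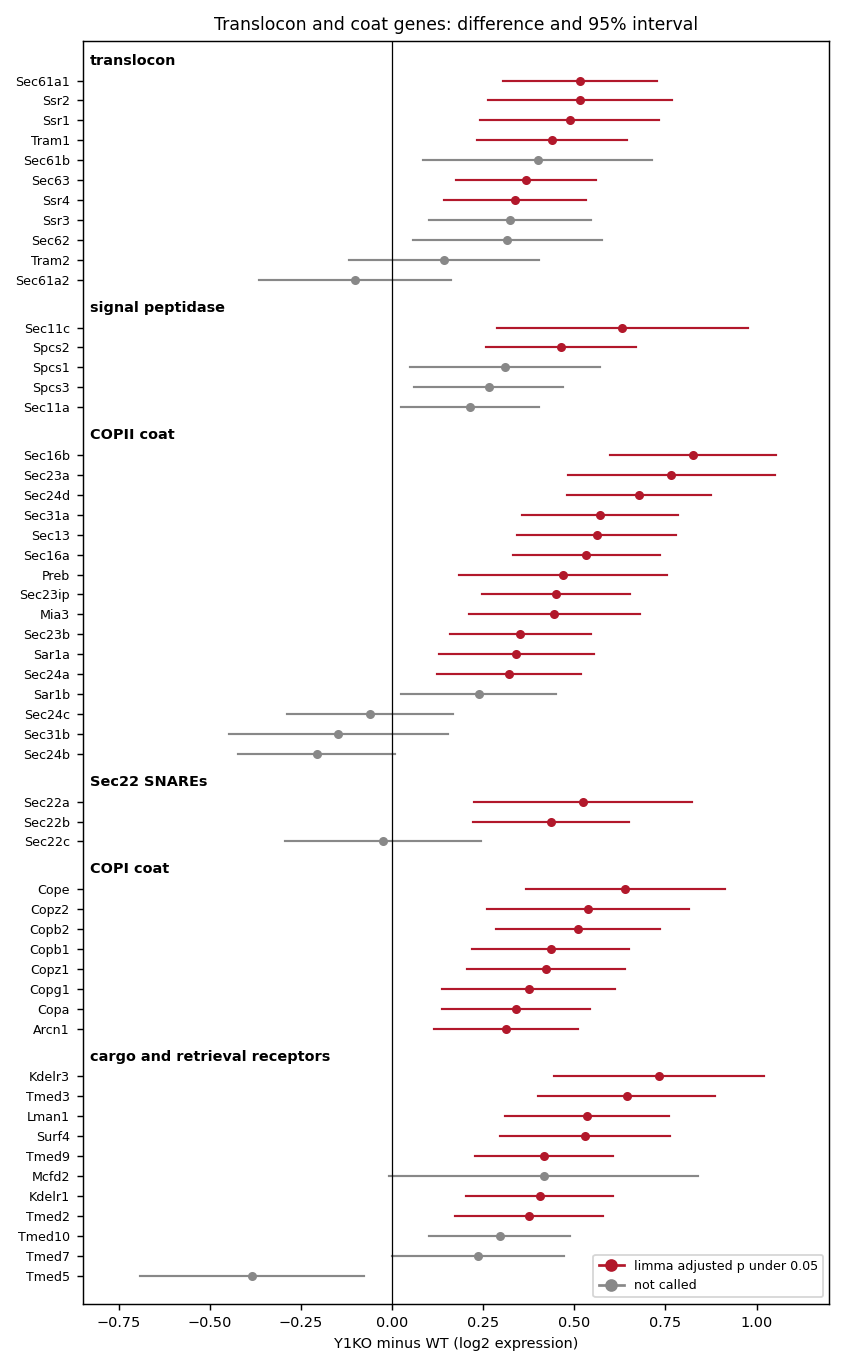
Difference between genotypes for each measured gene, grouped by role: the horizontal axis gives Y1KO minus WT in log2 expression, points are estimates, bars are 95% intervals from limma, and red marks genes with an adjusted p under 0.05. The 37 genes that rose lie between 0.31 and 0.83, and the 6 estimates below 0 are grey.

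The probe sets of these genes were bright, although signal does not compare levels between genes: 53 of the 54 read above the median of all genes in WT, the exception being Sec31b. Bright probe sets were called more often than dim ones. Among the 4984 genes above the 75th percentile of mean level, a split chosen after the data were seen, 13% rose and 11% fell. Of the 50 members in that range 36 rose, or 72%, with a median difference of 0.42 against 0.02 for all genes there. Above the 90th percentile 16.1% of 1994 genes rose and 9.83% fell, and 31 of 41 members rose. In these bulk samples a change in the number of cells of a type and a change in RNA per cell cannot be told apart.

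**Figure D2:**
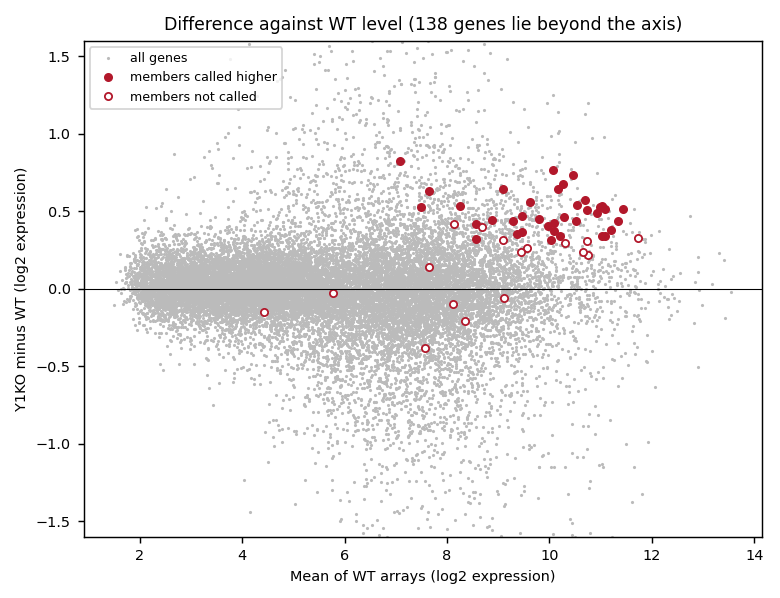
Difference against level: the horizontal axis is the WT mean and the vertical axis Y1KO minus WT, both in log2 expression, with every gene in grey, members that rose as filled red points and other members as open ones. The members lie mostly on the right, among bright genes, and above 0, and 138 genes fall beyond the vertical axis.

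Genes listed as markers of other cell types also differed between the genotypes. Over all genes 6.1% rose and 6.64% fell. Of 10 macrophage markers 7 rose, and the mean level of the 10 was 5.87 and 6.31 in Y1KO and 5.43 to 5.63 in WT. Itgam, Fcgr1 and Cd14 overlapped between genotypes, with differences of -0.002, 0.07 and -0.07. Of 9 smooth muscle and pericyte markers 7 fell, and their mean level was 7.96 and 7.83 in Y1KO against 8.80 to 9.18 in WT. In WT 8 of these 9 read above the median of all genes, with a mean of 12.91 for Acta2. Of the markers of B and plasma cells, which also have an extensive ER, 0 of 7 measured passed the limma test (1 at an unadjusted p under 0.05), and their mean level was 4.40 and 4.42 in Y1KO and 4.36 to 4.47 in WT. Of 8 granulocyte, 6 endothelial and 2 measured erythroid markers 0 passed the limma test (2, 0 and 0 at an unadjusted p under 0.05), and of 6 adipocyte markers 1 fell. Log2 array values have no true zero, so no marker can be called absent. Whether the osteoblastic cells themselves or cells of other types gave these signals cannot be told in bulk samples. The part of either in the differences of the translocon and coat genes was not tested.

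The members were also summarised by their median on each array, although single members differed by -0.39 to 0.83. Relative to each gene's WT mean, their median was 0.37 and 0.45 in Y1KO replicates 1 and 2, and 0.03, -0.08, 0.02 and 0.06 in WT replicates 1 to 4. Both Y1KO medians lay above all 4 WT medians. Of the 37 genes that rose, 32 had their top value in Y1KO replicate 2, and WT replicate 2 was the lowest WT array for 25. The number of calls rested on both Y1KO arrays, with 7 members rising without Y1KO replicate 1 and 2 without Y1KO replicate 2. It was 24 without WT replicate 1. With an ordinary linear model, in which variances are not moderated, 4 members rose. The median difference stayed between 0.37 and 0.48 in every alternative tried.

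**Figure D3:**
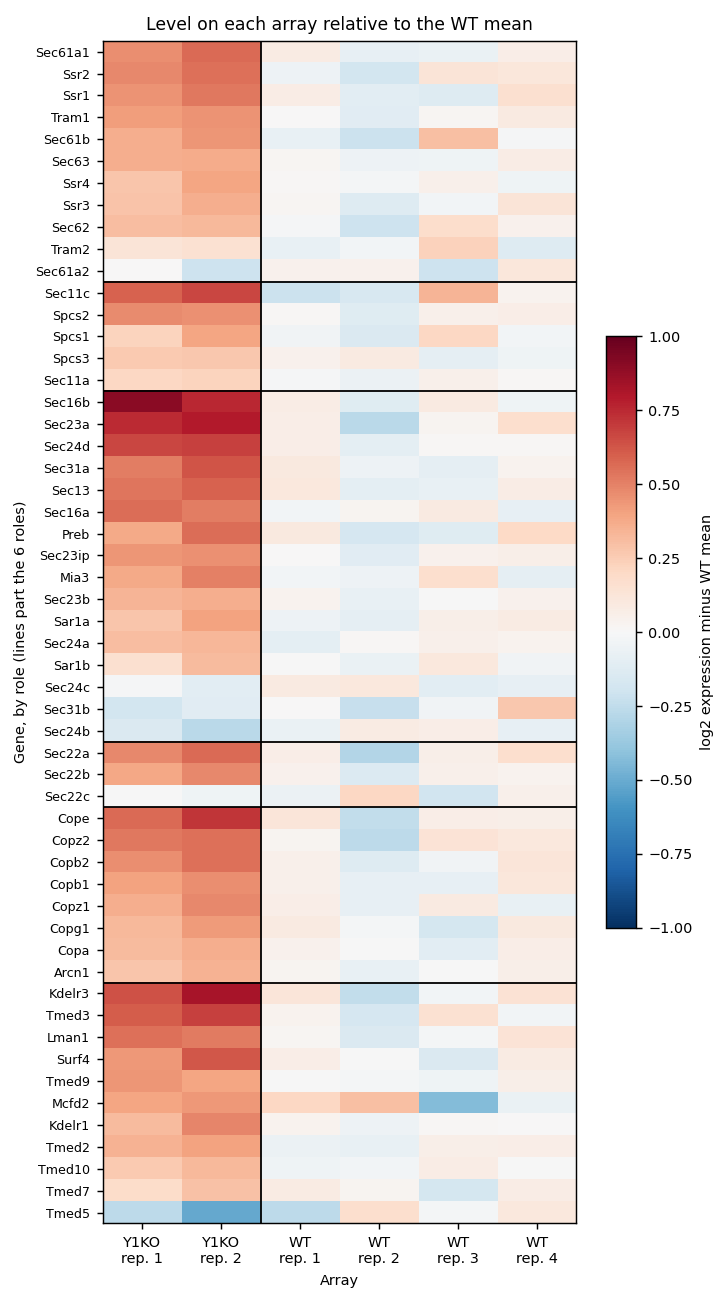
Level of each gene on each array relative to its WT mean, in log2 expression: columns are the 2 Y1KO and 4 WT arrays, rows are genes by role, red is above and blue below the WT mean. Both Y1KO columns are red for most genes, with medians of 0.37 and 0.45, and WT replicate 2 is the bluest of the WT columns, with a median of -0.08.

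The promoters of these genes were searched for motifs bound by transcription factors of the ER stress and secretory responses. RefSeq promoters (GRCm38.p6, 250 bases before to 50 after the start) were held for 45 of the 54 measured members and 30 of the 37 that rose. The motif TGACGTGG, on either strand, stood in 6 of the 45 members (13.3%) and in 143 of 15612 measured genes with a promoter (0.916%). All 6 were among the 30 that rose: Copb1, Copb2, Kdelr3, Sec16b, Sec23a and Sec24d. Most members with a promoter rose, 30 of 45, and a link between the motif and the rise was not tested. In 4 of the 6 genes the motif lies before the start. Their sequences are shown because the motif is rare among measured genes and was found in several members, 5′ to 3′ on the gene's strand, with the motif in capitals. Where it lies on the opposite strand the capitals read CCACGTCA.
Copb1, chr7:114254681-114254728, minus strand: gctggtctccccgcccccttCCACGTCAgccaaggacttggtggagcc
Kdelr3, chr15:79516358-79516405, plus strand: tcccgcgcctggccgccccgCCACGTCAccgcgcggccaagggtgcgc
Sec16b, chr1:157506732-157506779, plus strand: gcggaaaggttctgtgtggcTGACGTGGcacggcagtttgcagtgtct
Sec24d, chr3:123267450-123267495, plus strand: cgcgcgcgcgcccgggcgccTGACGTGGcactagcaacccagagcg

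The motif lay 20 bases before the start in Copb1, 22 in Kdelr3, 36 in Sec16b and 18 in Sec24d. Sec16b has 2 promoters in the table, and the one shown is the one with the match. CCACG, which TGACGTGG contains on its opposite strand, was in 32 of the 45 members (71.1%) and in 42.9% of measured genes. TGACGTCA was in 1 member, Cope (2.22%), and in 2.72% of measured genes. The ER stress element, CCAAT and CCACG with 9 bases between them, was in 0 of the 45 members and 0.135% of measured genes. The second ER stress element, ATTGG and CCACG with 1 base between them, was also in 0 of the 45 and in 0.0577% of measured genes. These are matches of letters, and no binding was measured.

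Of the 11 measured genes of the translocon, 6 rose, with a median difference of 0.37 over the 11, and 0 rose when either Y1KO array was left out. Over all genes 6.1% rose. Sec61a1, the channel-forming subunit, read 11.91 and 12.00 in Y1KO and 11.52, 11.36, 11.37 and 11.51 in WT. Both Y1KO arrays lay above all WT arrays, and Sec61a1 rose 1.43-fold (difference 0.52, SE 0.09, limma adjusted p = 0.0083). Ssr1, Ssr2 and Ssr4, subunits of the complex that assists the channel, rose by 0.49, 0.52 and 0.34. Sec63, which works with Sec61 and the ER chaperone BiP, rose by 0.37, and Tram1, a membrane protein beside the channel, by 0.44.

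Ssr3, of the same complex as Ssr1, read 12.02 and 12.10 in Y1KO and 11.76, 11.61, 11.71 and 11.87 in WT. Ssr3 did not overlap between genotypes, and its difference of 0.32 missed the threshold (limma adjusted p = 0.0667). Sec61b, another channel subunit, differed by 0.40 (limma adjusted p = 0.105) and Sec62 by 0.32 (limma adjusted p = 0.12). The 3 probe sets of Sec61b gave 0.40, 0.42 and 0.41. Tram2 overlapped, with a difference of 0.14 (limma adjusted p = 0.54). Sec61a2, the second gene of the channel subunit, read 8.13 and 7.92 in Y1KO and 8.17, 8.17, 7.92 and 8.24 in WT. Its groups overlapped and its difference was -0.10 (limma adjusted p = 0.685).

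Signal peptidase had 2 of 5 genes that rose, and all 5 lay above every WT array. Over all genes 6.1% rose and 17.5% lay above every WT array. Leaving out WT replicate 1 or 4 gave 1 call in signal peptidase, and leaving out either Y1KO array gave 0. Sec11c, one of the alternative catalytic subunits, read 8.24 and 8.31 in Y1KO and 7.43, 7.49, 7.98 and 7.68 in WT. Sec11c rose 1.55-fold (difference 0.63, SE 0.15, limma adjusted p = 0.0273), with WT replicate 3 nearest to the Y1KO arrays. Spcs2, an accessory subunit, rose by 0.46 (limma adjusted p = 0.0116). Spcs1, a small accessory subunit, read 10.96 and 11.13 in Y1KO and 10.70, 10.59, 10.94 and 10.71 in WT, with WT replicate 3 close to the lower Y1KO array. Spcs1, Spcs3 and Sec11a, the other catalytic subunit, had differences of 0.31, 0.26 and 0.21 that did not pass the test.

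The COPII coat held the largest difference of the 54 genes. Of 16 COPII genes 12 rose (75%), against 6.1% of all genes, with a median difference of 0.45 over the 16. The count was 7 without WT replicate 1, 4 without Y1KO replicate 1 and 2 without Y1KO replicate 2. Sec16b, a scaffold protein of ER exit sites, read 7.99 and 7.84 in Y1KO and 7.16, 6.96, 7.18 and 7.04 in WT. The groups were far apart relative to their spread, and Sec16b rose 1.77-fold (difference 0.83, SE 0.10, 95% interval 0.60 to 1.05, limma adjusted p = 0.00171). Sec16a, the larger scaffold of the same sites, read 8.82 and 8.77 in Y1KO and 8.23, 8.29, 8.35 and 8.18 in WT. Sec16a rose 1.45-fold without overlap (difference 0.53, SE 0.09, limma adjusted p = 0.00605).

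In the inner layer the rise was largest for Sec23a and Sec24d. Sec23a, which stimulates GTP hydrolysis by Sar1, read 10.82 and 10.87 in Y1KO and 10.15, 9.81, 10.11 and 10.25 in WT. Sec23a rose 1.7-fold (difference 0.77, SE 0.12, limma adjusted p = 0.00554), and WT replicate 2 was the lowest array. Sec24d, a cargo-binding subunit, read 10.93 and 10.94 in Y1KO and 10.33, 10.16, 10.27 and 10.27 in WT. Sec24d rose 1.6-fold (difference 0.68, SE 0.09, limma adjusted p = 0.00218), and the spread within each genotype was small against this difference. Sec23b and Sec24a, relatives of these genes, rose by 0.35 and 0.32 (limma adjusted p = 0.0278 and 0.0448).

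Sar1a, which encodes the GTPase that starts coat assembly, read 11.30 and 11.42 in Y1KO and 10.97, 10.93, 11.09 and 11.10 in WT. It rose 1.27-fold without overlap (difference 0.34, SE 0.09, limma adjusted p = 0.0471). Sar1b, its close relative, differed by 0.24 and did not pass the test (limma adjusted p = 0.154). Preb, the exchange factor that loads Sar1 with GTP, rose by 0.47 (limma adjusted p = 0.0427).

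In the outer cage Sec13 and Sec31a rose, and Sec31b did not pass the test. Sec13 read 10.16 and 10.22 in Y1KO and 9.73, 9.53, 9.55 and 9.70 in WT. Sec31a, its partner in the cage, read 11.21 and 11.33 in Y1KO and 10.80, 10.65, 10.61 and 10.74 in WT. Neither gene overlapped between genotypes, and each rose 1.48-fold (limma adjusted p = 0.00676 for Sec13 and 0.00591 for Sec31a). Sec23ip, which binds Sec23 and Sec31, rose by 0.45 and Mia3, which helps to load procollagen into COPII carriers, by 0.44. Mia3 read 9.26 and 9.38 in Y1KO and 8.84, 8.82, 9.04 and 8.78 in WT (limma adjusted p = 0.0236). The WT arrays all lay below the Y1KO arrays. Mia3 was singled out by array after its values were seen, as were the members with estimates below 0 and Mcfd2.

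Of the COPI coat genes, the 8 among the 54 rose, with differences of 0.31 to 0.64 and a median of 0.43. None of the 8 overlapped between genotypes. Of all genes 6.1% rose, and 17.5% lay above every WT array in Y1KO. Copg2, the other gene of the gamma subunit, stood in a further list and did not pass the test (difference 0.19, limma adjusted p = 0.245). Cope, the epsilon subunit, read 10.73 and 10.88 in Y1KO and 10.28, 9.92, 10.23 and 10.23 in WT, and rose 1.56-fold (difference 0.64, SE 0.12, limma adjusted p = 0.00957). WT replicate 2 stood below the other WT arrays for Cope. Copz2, one of the 2 zeta subunits, read 11.05 and 11.08 in Y1KO and 10.56, 10.26, 10.66 and 10.63 in WT. Copz2 rose 1.45-fold (difference 0.54, SE 0.12, limma adjusted p = 0.0219), and Copz1, the other zeta subunit, rose by 0.42.

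Copa, the alpha subunit, read 11.39 and 11.44 in Y1KO and 11.12, 11.07, 10.97 and 11.15 in WT. Copa rose 1.27-fold without overlap (difference 0.34, SE 0.09, limma adjusted p = 0.0388). Copb2 and Copb1, the beta prime and beta subunits, rose by 0.51 and 0.44. Arcn1, the delta subunit, rose by 0.31 and Copg1, the gamma subunit, by 0.38, and these were the calls nearest the threshold (limma adjusted p = 0.0479 and 0.0489). The nearest members on its other side were Tmed10 and Ssr3 (limma adjusted p = 0.0554 and 0.0667). Of the 8 subunits, 5 rose with quantile normalization, 5 without WT replicate 1, 2 or 3, 4 without WT replicate 4 and 0 when either Y1KO array was left out.

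Of the 11 measured cargo and retrieval receptors 7 rose (63.6%), against 6.1% of all genes, with a median difference of 0.42 over the 11. Dropping Y1KO replicate 1 left 3 receptors that rose, and dropping Y1KO replicate 2 left 0. Kdelr3, which returns escaped ER proteins through their KDEL-type tails, read 11.10 and 11.29 in Y1KO and 10.59, 10.22, 10.44 and 10.61 in WT. Kdelr3 rose 1.66-fold (difference 0.73, SE 0.13, limma adjusted p = 0.00709), with WT replicate 2 the lowest array. Kdelr1, of the same family, rose by 0.40 (limma adjusted p = 0.0194).

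Lman1, a lectin that carries glycoproteins such as clotting factors out of the ER, read 11.58 and 11.54 in Y1KO and 11.05, 10.88, 11.01 and 11.16 in WT. Surf4, a receptor for soluble cargo, read 11.43 and 11.62 in Y1KO and 11.06, 10.99, 10.85 and 11.08 in WT. Neither overlapped, and Lman1 rose by 0.53 (limma adjusted p = 0.00912) and Surf4 by 0.53 (limma adjusted p = 0.0112). Mcfd2, the soluble partner of Lman1, read 8.53 and 8.56 in Y1KO and 8.33, 8.43, 7.69 and 8.06 in WT. The WT arrays were widely spread for Mcfd2, and its difference of 0.42 had a 95% interval of -0.01 to 0.84 (limma adjusted p = 0.217).

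The Tmed genes encode p24 proteins, cargo receptors that cycle in COPI and COPII vesicles. Tmed3 read 9.69 and 9.77 in Y1KO and 9.12, 8.92, 9.24 and 9.06 in WT, and rose 1.56-fold (difference 0.64, SE 0.11, limma adjusted p = 0.00594). Tmed2 read 11.56 and 11.62 in Y1KO and 11.16, 11.14, 11.27 and 11.28 in WT, and rose by 0.38 (limma adjusted p = 0.0262). The 3 probe sets of Tmed2 gave 0.38, 0.39 and 0.40. Both genes were apart on all arrays, and Tmed9 rose by 0.42 (limma adjusted p = 0.0127). Tmed10 and Tmed7 differed by 0.30 and 0.24 and did not pass the test.

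The Sec22 genes encode ER and Golgi SNAREs or their relatives, and 2 of the 3 rose, against 6.1% of all genes. Leaving out WT replicate 1 or 3 gave 1 call among the Sec22 genes, and leaving out either Y1KO array gave 0. Sec22b, the SNARE of traffic between the ER and the Golgi, read 9.67 and 9.77 in Y1KO and 9.33, 9.15, 9.34 and 9.32 in WT, and rose by 0.44 (limma adjusted p = 0.0177). Sec22a read 7.97 and 8.06 in Y1KO and 7.56, 7.20, 7.55 and 7.66 in WT, and rose 1.44-fold (difference 0.52, SE 0.13, limma adjusted p = 0.0335). Neither gene overlapped between genotypes. Sec22c read 5.76 and 5.72 in Y1KO and 5.70, 5.97, 5.57 and 5.81 in WT, with a difference of -0.03 (limma adjusted p = 0.935). The sign of that difference turned, to 0.03, when arrays were centred on the median of their genes, and with quantile normalization.

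Each of the 6 members with estimates below 0 had a relative among the 54 genes that rose. They were Sec61a2, Sec22c, Sec24b, Sec24c, Sec31b and Tmed5, and 0 of the 6 passed the limma test, with 1, Tmed5, at an unadjusted p under 0.05. Sec24b read 8.21 and 8.09 in Y1KO and 8.29, 8.44, 8.42 and 8.27 in WT, below all WT arrays, with a difference of -0.21 (95% interval -0.42 to 0.01, limma adjusted p = 0.226). Sec24c overlapped, at 9.11 and 9.01 in Y1KO and 9.21, 9.23, 9.01 and 9.04 in WT, with a difference of -0.06. Its 95% interval of -0.29 to 0.17 overlapped that of Sec24a, 0.12 to 0.52, and not that of Sec24d, 0.48 to 0.88. Whether the Sec24 genes differ from one another was not tested. Sec31b was dim, at 4.25 and 4.31 in Y1KO and 4.43, 4.20, 4.39 and 4.69 in WT, with a difference of -0.15 (limma adjusted p = 0.586). Tmed5 read 7.30 and 7.05 in Y1KO and 7.30, 7.73, 7.54 and 7.67 in WT, where Y1KO replicate 1 and WT replicate 1 were nearly equal. Its difference was -0.39 (95% interval -0.69 to -0.08, limma adjusted p = 0.11). Of the alternatives tried, only leaving out WT replicate 1 took Tmed5 past the threshold, with a difference of -0.47.

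Related genes were set side by side within each array, in 16 pairs written down after the members' values had been seen, so the differences are a description with no test. Each pair has the gene of larger difference first, and not every possible pair was taken. Sec24d moved apart from Sec24b by 0.88 and from Sec24c by 0.74, and Sec24a from Sec24b by 0.53. Sec61a1 moved apart from Sec61a2 by 0.62 and Sec31a from Sec31b by 0.72. Tmed3 and Tmed5, the measured Tmed members of highest and lowest difference, moved apart by 1.03. Among pairs in which both relatives rose, the gap was 0.41 for Sec23a over Sec23b, 0.33 for Kdelr3 over Kdelr1, 0.29 for Sec16b over Sec16a and 0.12 for Copz2 over Copz1. Pairs with 1 relative that rose could have gaps as small, at 0.38 for Sec24a over Sec24c, 0.30 for Tram1 over Tram2 and 0.10 for Sar1a over Sar1b.

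**Figure D4:**
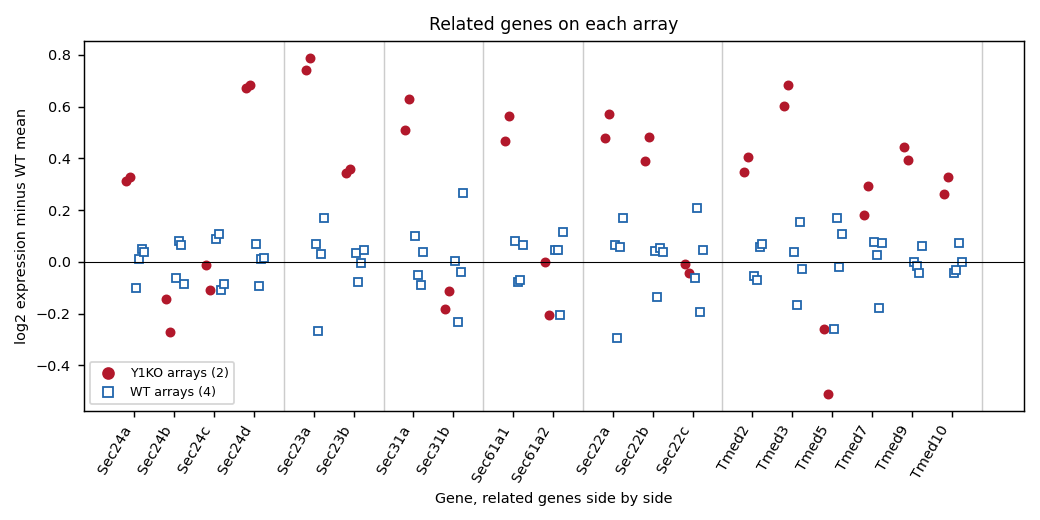
Related genes on each array: the vertical axis is log2 expression minus the gene's WT mean, filled red points are the 2 Y1KO arrays and open blue squares the 4 WT arrays. Sec24a and Sec24d, at 0.32 and 0.68, stand above 0 in Y1KO, while Sec24b and Sec24c, at -0.21 and -0.06, do not.

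Some genes next to these on the route rose as well. Of 87 measured genes in 6 further lists of the secretory route, 26 rose (29.9%) and 1 fell, with a median difference of 0.15. Of all genes 6.1% rose, and of those above the 75th percentile of mean level 13%. In the signal recognition particle and its receptor, which bring ribosomes to the ER, 4 of 7 rose: Srprb by 0.73, Srp72 by 0.45, Srpra by 0.44 and Srp68 by 0.40. Among 24 partners of transport from the ER to the Golgi 11 rose. Golga2 and Uso1, which tether vesicles at the Golgi, rose by 0.67 and 0.71, the SNARE regulator Scfd1 by 0.57 and the Golgi stacking gene Gorasp1 by 0.57. Of 20 further COPI, Arf and receptor genes 4 rose (20%), and of all genes above the 90th percentile of mean level 16.1%. The median WT percentile of the 20 was 91.5, but dim genes were among them, down to a WT mean of 3.65. With 20 genes the share cannot be placed near or away from these shares of all genes. The 4 that rose were Arfgap3 by 0.71 and Arfgap1 by 0.58, which switch Arf GTPases off, Gbf1, which switches them on, by 0.36, and Ergic2 by 0.44.

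Past the Golgi, 1 of 15 clathrin adaptor and exocyst genes rose (6.67%), Ap1b1 by 0.36, with a median difference of 0.05. Of all genes 6.1% rose, and of those above the 75th percentile of mean level 13%. With 15 genes the share of this list cannot be placed near or away from either. Whether the lists differ from one another was not tested. Without Y1KO replicate 1 or 2 the counts were 1 and 0 for the signal recognition particle, 2 and 1 for the ER to Golgi partners, 1 and 0 for the further COPI genes and 0 and 0 for the post-Golgi list. Without WT replicate 1 the further COPI genes numbered 2, and without WT replicate 4 the post-Golgi list had 0. In the list for insertion of membrane proteins 1 of 12 rose, Emc7 by 0.35, and 1 fell, Emc2.

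**Figure D5:**
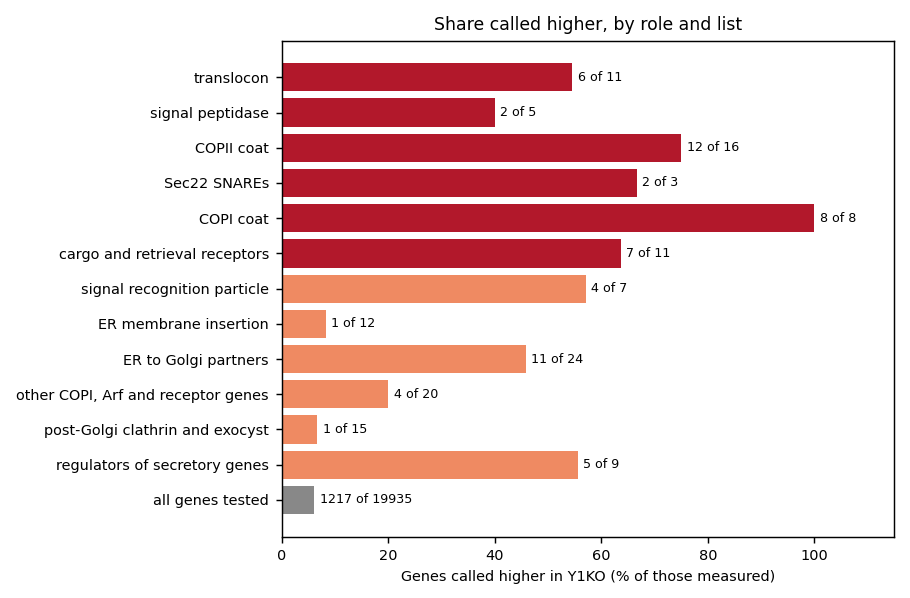
Share of measured genes that rose in Y1KO, in percent, for the 6 roles (red), the 6 further lists (orange) and all genes tested (grey), with counts beside the bars. The bars run from 100% for the 8 COPI coat genes among the 54 to 6.67% for the post-Golgi list and 6.1% for all genes.

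Of 9 measured regulators of secretory genes 5 rose (55.6%), against 6.1% of all genes, with a median difference of 0.50 over the 9. Creb3l1, a transcription factor cleaved on its way through the Golgi and needed in mouse osteoblasts for normal bone collagen, read 11.19 and 11.16 in Y1KO and 10.34, 9.71, 10.35 and 10.26 in WT. Creb3l1 rose 2.01-fold (difference 1.00, SE 0.17, limma adjusted p = 0.00722), with WT replicate 2 well below the other arrays. Xbp1, which drives expansion of the ER, rose by 0.60. Bhlha15, a factor of professional secretory cells, rose by 0.94 from a dim WT mean of 4.83. Creb3, related to Creb3l1, rose by 0.50. Creb3l2, Atf6, Mbtps1 and Atf6b overlapped between genotypes, with differences of 0.19, 0.14, 0.13 and 0.06 that did not pass the limma test. Dropping Y1KO replicate 1 left 1 regulator that rose, and dropping Y1KO replicate 2 left 0.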

How the data were processed

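The deposited table holds log2 expression values for 28815 probe sets on 6 arrays. RMA and limma are named, without versions, in the submitters' processing notes, and the authors' probe annotation and genome build were not given in the sources used here. No further normalization was applied. The platform annotation, which can be old, gave 1 symbol for 21780 probe sets, several for 1605 and no entry for 5430. The probe set of highest mean stood for a gene, giving 19935 genes. Srpra and Camlg were found under the older names Srpr and Caml.

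Y1KO (2 arrays) was compared with WT (4 arrays) with limma 3.58.1 (R 4.3.3; lmFit, then eBayes; genotype only, two-sided, Benjamini-Hochberg over all genes, called under 0.05). The number of arrays limits the precision, since arrays have no read depth. In simulated data with independent noise, the fit was checked only for the mean of its estimates, for a large difference and for none. How often it recovers differences of the size seen here is not reported. Values are given by array for the 15 genes of largest difference among those called, for the gene of highest mean and of largest difference in each role, and elsewhere by range. Up to 4 called genes of smallest p are named from each further list. Members, gene lists, markers and motifs were chosen with earlier results of these data known. The related-gene pairs, the split by level and the centring on the median of genes were added after the values were seen. Promoter sequences are RefSeq's (GRCm38.p6), matched by symbol. Alternatives were other normalizations, filters, probe set rules, variance settings, array weights, a replicate block and leaving out each array.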

Additional observations from a re-analysis of the deposited data

Results flagged for a closer look

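In 7 of 88 sets of WT values tested, 1 array stood farther from the rest than Dixon's criterion allows. Chance alone gives about 1 in 20 for independent sets. In each of the 7 that array was WT replicate 2, and it was low. Among the translocon and coat genes these were Sec22b, at 9.15 against 9.32 for the nearest WT array, and Cope, at 9.92 against 10.23. Among the further genes they were Gosr2 at 8.35, Stx5a at 8.66 and Creb3l1 at 9.71. The medians of the COPII list and of the Sec22 list, relative to the WT mean of each gene, were -0.08 and -0.13 on that array. Without WT replicate 2 the number of genes that rose was 28 of 54. The 88 sets share the same 4 arrays and include list medians of the same genes. They are not independent, so the 7 cannot be read as an excess. Array weights were lowest for WT replicate 3, at 0.58, with 0.76 for WT replicate 2.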

How the results depend on the processing

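The median difference of the 54 genes lay between 0.37 and 0.48 under every alternative, and 48 or 49 of the 54 had positive estimates. Counts of calls moved more. The 37 genes that rose numbered 30 with quantile normalization, 39 with arrays centred on their medians, 40 with arrays centred on the median of their genes (added after seeing the data), 39 of 53 and 40 of 52 with filters at the 40th and 60th percentile, 37 with the mean of probe sets, 39 with trend and robust options and 40 with array weights. Without moderation of the variance 4 rose (Sec24d, Sec16a, Sec16b and Tmed9), with 1 in the signal recognition particle list, 0 in membrane insertion, 2 of the ER to Golgi partners, 1 of the further COPI genes, 0 post-Golgi, 0 regulators, 0 of the translocon, 0 of signal peptidase, 3 of COPII, 0 Sec22 genes, 0 of COPI and 1 receptor. Those fits estimate each gene's spread from 6 arrays alone. Leaving out 1 array gave 2 to 34 rising and 0 to 1 falling members, and counts of 0 to 6 in the signal recognition particle list, 0 to 2 in membrane insertion, 1 to 11 ER to Golgi partners, 0 to 4 further COPI genes, 0 to 1 post-Golgi, 0 to 5 regulators, 0 to 7 translocon genes, 0 to 3 of signal peptidase, 2 to 10 of COPII, 0 to 2 Sec22 genes, 0 to 5 of COPI and 0 to 8 receptors. When a Y1KO array was left out, the lone remaining one was assumed to vary like the WT arrays. Sec16b and Sec24d kept their calls under every alternative. Quantile normalization gave 1 call in membrane insertion and 5 in COPI, the filter at the 60th percentile gave 4 in membrane insertion, and centring either way or array weights gave 2 in the post-Golgi list. The difference of Sec22c turned positive with quantile normalization (0.023) and with centring on the median of genes (0.034), and ran from -0.089 to 0.044 when single arrays were left out, positive without WT replicate 2. That of Sec61a2 ran from -0.20 to 0.0015, positive without Y1KO replicate 2. The cause of these changes was not tested.

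The replicate numbers are shared by 2 pairs of arrays, whose deviations correlated at 0.013 and -0.20 over genes. With 2 Y1KO arrays the deviations of 1 mirror those of the other. These correlations therefore cannot tell whether the numbers pair the samples. With the replicate block 23 of the 54 genes rose and 15 of the 37 calls were lost. The same block gave 1 call in membrane insertion, 7 ER to Golgi partners, 2 further COPI genes, 0 post-Golgi, 1 Sec22 gene, 3 COPI genes and 4 receptors.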

Other observations

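Emc2, a subunit of the ER membrane complex that inserts membrane proteins, was the gene that fell among the 87 measured genes of the 6 further lists. It read 9.60 and 9.55 in Y1KO and 10.61, 11.05, 10.59 and 10.42 in WT. The groups were well apart, and Emc2 fell by 1.09 on the log2 scale (SE 0.16, limma adjusted p = 0.00345), a larger change than that of any of the 54 translocon and coat genes measured. Emc2 lost its call without moderation of the variance and without Y1KO replicate 2. Among other subunits of the complex Emc7 rose by 0.35, while Emc3, Emc4 and Emc9 had differences of 0.23, 0.20 and -0.18 that did not pass the limma test. Emc6, Emc8 and Emc10 did not pass it either, and overlapped between genotypes, with differences of -0.003, 0.03 and 0.23.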
